A study of Mus musculus with 7 samples.

Results

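Neuroendocrine-like thymic epithelial cells were taken here as cells with RNA of several genes of regulated secretion, and within set limits for markers of other states. A cell was chosen when Ptprc, Aire and Trpm5 were all at 0, the deposited natural log value was below 4 for Pth and at most 4 for Ccl21a, and at least 2 of the 5 genes Chgb, Scg3, Snap25, Stmn2 and Insm1 were above 0. The rule chose 85 of the 8220 cells with Ptprc at 0, out of 8453 cells in all 7 libraries. The cells were thus chosen by measured values of these genes, so the levels of the 5 choosing genes describe the choice and support nothing else. The chosen cells are called the members below.

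Neuroendocrine cells pack peptide hormones and monoamines into dense-core granules, together with granins such as chromogranin A, and release them when calcium enters the cell. The thymic medulla contains epithelial cells that resemble differentiated cells of other tissues, and it also makes many tissue-restricted proteins at low levels as antigens for the deletion of self-reactive T cells. A transcript of an endocrine gene in a medullary cell can therefore stand alone or as 1 of many in an endocrine-like program.

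The study used droplet-based single-cell RNA sequencing of EpCAM-positive, CD45-negative cells sorted from the thymus of C57BL/6 mice, with 3 thymi pooled into each library. The lineage tracing library came from mice of 6 weeks of age that carried Aire-CreERT2 and R26-CAG-Stopfl-zsGreen and received 2 mg of tamoxifen every other day over 10 days, so that cells with an active Aire locus in that time gained the ZsGreen reporter. Mice for the isotype control libraries received 3 injections of 100 µg of isotype antibody within a week and were 4 weeks old at week 2 and 12 weeks old at week 10 after treatment. Mice given the same schedule of anti-RANKL, an antibody against the cytokine that drives medullary epithelial maturation, gave libraries at weeks 2, 4, 6 and 10, at ages of 4, 6, 8 and 12 weeks. Every condition and time is a single pool, except that both isotype libraries serve as controls, so no difference between conditions was tested. Age and time after treatment go together and cannot be told apart.

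Levels are given as UMIs per 10000 UMIs of the cell, where a UMI is a tag that counts a single captured RNA molecule. The libraries held between 730 and 1475 cells, with a median of 9213 UMIs per cell in the lineage tracing library, 16809 and 8333 in controls of weeks 2 and 10, and 11145.5, 4779, 4299.5 and 7332 at weeks 2, 4, 6 and 10 after anti-RANKL. Members had a median of 8161 UMIs and other cells with Ptprc at 0 had 8014, and the mitochondrial share was 2.43% and 2.49%. Because the libraries differ in depth, a member was also set against its own library, where its depth was 0.726 times the median of that library. The text of the study names no step against doublets and none were called here, but 8 of 85 members (9.41%) lay above 2 times the median depth of their library, against 11.1% of other cells. Libraries shared 50 barcodes in any pair, and 1 member, of the pair of weeks 2 and 4 after anti-RANKL, had a shared barcode.

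The label names Chga, Chgb, Snap25 and Insm1, of which only Chga can check it, since the rule used the others. Insm1, a zinc finger repressor that promotes endocrine differentiation, had a UMI in 80 of 85 members. Snap25, a SNARE protein of exocytosis, had one in 48, Chgb (chromogranin B) in 33, Stmn2, a regulator of microtubules, in 29 and Scg3 (secretogranin III) in 18. Exactly 2 choosing genes were detected in 53 members, 3 in 26 and 4 in 6. The most frequent combination was Stmn2 with Insm1 alone, in 26 members (30.6%), followed by Snap25 with Insm1 in 16 and Chgb with Snap25 and Insm1 in 15.

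Each choosing gene was also read in the cells that the other 4 genes choose. This describes the choice and does not check the label, since all 5 were picked with results of these data known. Chgb had a UMI in 26 of the 78 cells chosen without it (33.3%, exact binomial 95% interval 23.1 to 44.9%), against 1.07% of the other cells. Snap25 was detected in 29 of 66 such cells (43.9%) against 2.83%, and Scg3 in 14 of 81 (17.3%) against 0.270%. Each of these genes was thus detected more often there than in the other cells. Insm1 had a UMI in 30 of 35 cells (85.7%, 69.7 to 95.2%) against 24.9%. Stmn2 behaved differently, with a UMI in 3 of 59 cells (5.08%, 1.06 to 14.1%) against 16.8% of the other cells and 6.40% of those that passed the gates. Intervals throughout cover counting error alone.

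The members were therefore split, after the data had been seen, into 59 with at least 1 of Chgb, Scg3 and Snap25, called granule members, and 26 with Stmn2 and Insm1 alone, called pair members. Chga, the label marker that the rule did not use, averaged 19.3 UMIs per 10000 over the granule members and 0.791 over the pair members, close to the 0.921 of Aire-positive cells. It had a UMI in 43 of 59 granule members (72.9%) and 13 of 26 pair members. Resp18, a protein of the granule lumen in endocrine tissue, averaged 14.4 and 2.02. Car8, Cd177, Fam183b, Runx1t1 and St18 were each detected in at least 20 granule members, and Cd177, Fam183b, Runx1t1 and St18 in none of the 26 pair members, where a count of 0 allows a share of up to 11.5% (3 counts of the total). The pair members instead held more Krt5 (5.03 against 1.26), Fezf2 (4.66 against 1.56), Hes6 (8.23 against 1.44) and Cd74 (157 against 75.2) than granule members. Their median depth was 11295 UMIs, 1.52 times that of their libraries, and 8 of 26 lay above 2 times the median, while granule members had 6736 UMIs, 0.633 times that of their libraries, and 0 of 59 lay above it. Chga, the label marker outside the rule, was thus higher in the 59 granule members than in the 26 pair members, which held it in part. The split used choosing genes and was made after the data had been seen, so the other genes named here only describe it. What the depth contributed to the choice of the pair members was not tested.

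**Figure D1:**
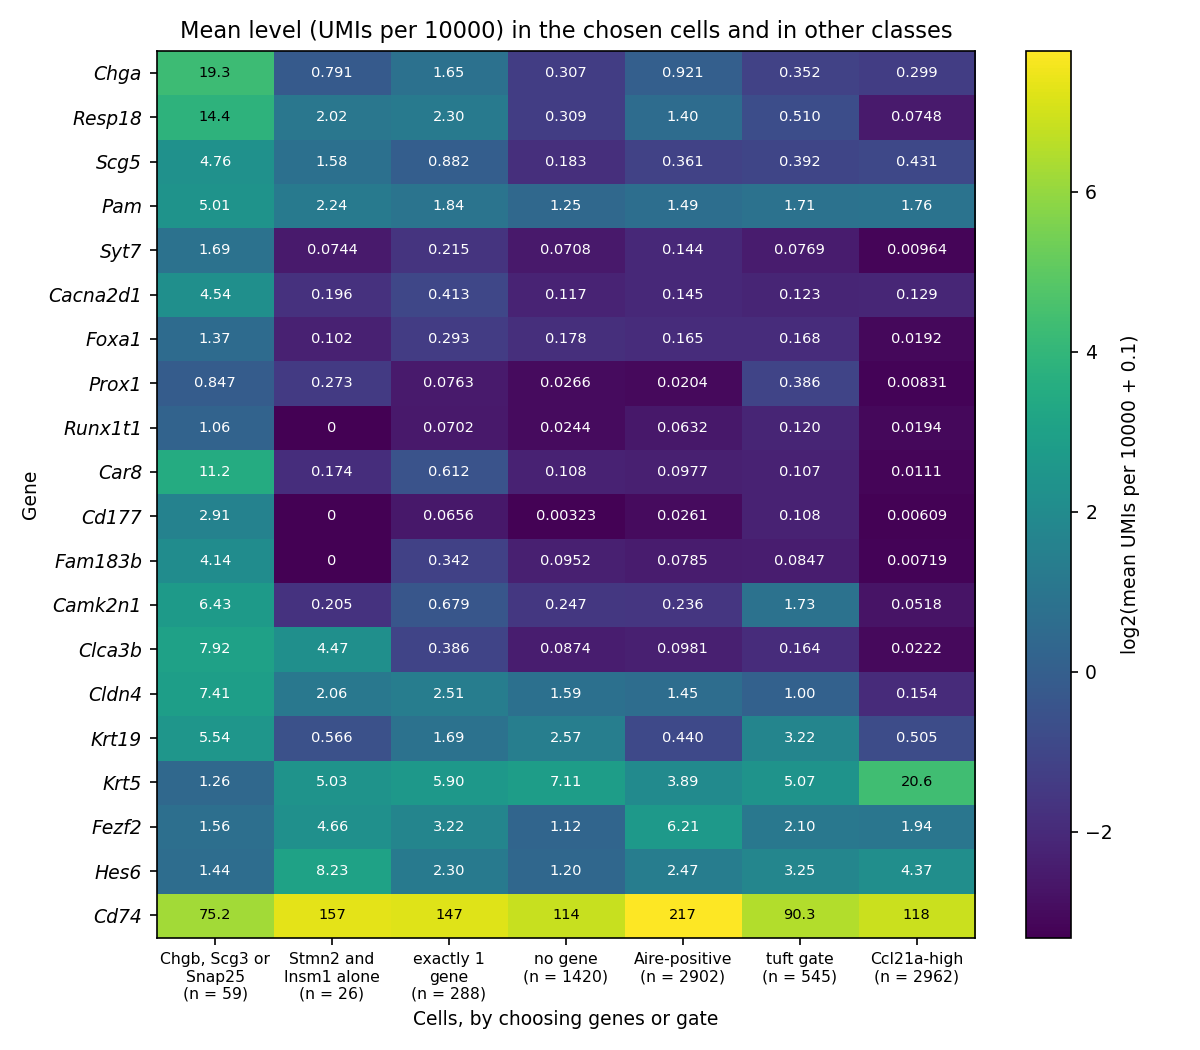
Mean level in UMIs per 10000 (numbers in the tiles, colour on a log2 scale) of 20 genes in granule members, pair members, cells with exactly 1 or none of the choosing genes, and cells of the Aire-positive, tuft and Ccl21a-high gates. Car8 averages 11.2 in granule members and 0.174 in pair members, whereas Cd74 averages 75.2 and 157.

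Members were found in every library, at shares from 0.417 to 2.11% of the cells with Ptprc at 0. The rule chose 8 of 1318 cells in the lineage tracing library (0.607%, 0.262 to 1.19%), 17 of 1129 in the week 2 control (1.51%, 0.880 to 2.40%) and 12 of 1247 in the week 10 control (0.962%, 0.498 to 1.67%). After anti-RANKL the rule chose 25 of 1184 at week 2 (2.11%, 1.37 to 3.10%), 8 of 1451 at week 4 (0.551%, 0.238 to 1.08%), 3 of 719 at week 6 (0.417%, 0.0861 to 1.21%) and 12 of 1172 at week 10 (1.02%, 0.530 to 1.78%). The share was thus highest at week 2 and lowest at week 6 after anti-RANKL, with overlapping intervals between week 2 and its control, and the controls averaged 1.23% ± 0.384 (SD, n = 2). Weeks 4 and 6 are also the shallowest libraries, and the part of depth in their low shares was not tested.

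Granule members made up 0.718% of the cells with Ptprc at 0. They numbered 8 in the lineage tracing library, 15 and 7 in controls of weeks 2 and 10, and 16, 3, 0 and 10 at weeks 2, 4, 6 and 10 after anti-RANKL. As percents of the cells with Ptprc at 0 these were 0.607%, 1.33%, 0.561%, 1.35%, 0.207%, 0% and 0.853%, where the 0 of 719 cells at week 6 allows up to 0.417% (again 3 counts of the total; the exact binomial interval reaches 0.512%). Week 2 after anti-RANKL therefore did not stand out from the week 2 control in granule members, and the 9 pair members there made up the rest of its higher share. The pair members numbered 0, 2, 5, 9, 5, 3 and 2 in the same order. With every cell thinned to 2000 UMIs before the choosing genes were read, 30 of 8048 cells (0.373%) were members, 10 of them at week 2 after anti-RANKL, 8 in the week 2 control, 6 at week 10 after anti-RANKL, 3 in the week 10 control, 2 in the lineage tracing library, 1 at week 4 and 0 at week 6.

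**Figure D2:**
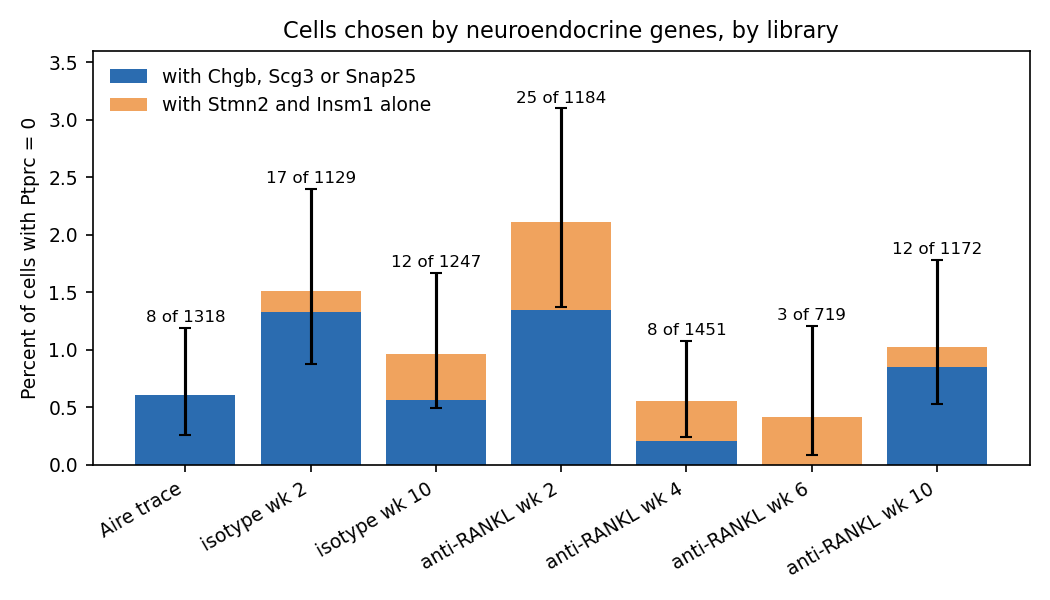
Percent of the cells with Ptprc at 0 that are granule members (blue) and pair members (orange) in each of the 7 libraries, with the exact binomial 95% interval of both together and the count above. The total runs from 0.417% at week 6 to 2.11% at week 2 after anti-RANKL, and granule members from 0 to 1.35%.

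Just outside the rule stood 288 cells that met every gate and held exactly 1 choosing gene, which was Insm1 in 181, Stmn2 in 85, Snap25 in 11, Chgb in 8 and Scg3 in 3. Just inside stood 53 cells with exactly 2, and 32 cells held 3 or more. Chga averaged 1.65 UMIs per 10000 in cells with exactly 1, 11.6 in cells with exactly 2 and 17.0 in cells with 3 or more. Car8 averaged 0.612, 3.78 and 14.4 in the same order, and Krt5 5.90, 3.32 and 0.925. The median depths were 6879, 9252 and 7049.5 UMIs. Chga and Car8, which the rule did not use, were thus higher and Krt5 lower from class to class. Median depth rose from the first class to the second and fell from the second to the last, and its part was not tested. The class with exactly 2 includes all 26 pair members and the class with 3 or more none, so the last step also changes the mixture.

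Across genes, members were set against all other cells with Ptprc at 0 in each of the 6 libraries with at least 5 members, which leaves out week 6. Each gene has a mean log2 ratio of levels over those libraries, computed after adding 0.1 to each level, with its SD (n = 6 unless another n is given). A gene was called higher or lower when the mean was at least 1 in size and the sign was the same in every library. This is a call by size, and chance was not tested. Of 10075 genes with a mean level of at least 0.1 in either class, 204 were called higher (2.02%) and 422 lower (4.19%), and the median ratio of all genes was -0.02. The 10 genes of the rule were left out of these counts. Counts of genes called in a list below are to be read beside these shares.

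Other cells include the Aire, Trpm5 and Ccl21a states that the gates remove, so the same ratio was formed against other cells that passed the gates. There 198 of 10188 genes were called higher (1.94%) and 573 lower (5.62%), and 147 of the 204 and 303 of the 422 genes were called the same way in both. For granule members alone, over the 5 libraries with at least 5 of them, 536 of 10267 genes were called higher (5.22%) and 772 lower (7.52%), including 193 of the 204 and 352 of the 422. Against other cells that passed the gates, 431 of 10298 genes were called higher in granule members (4.19%) and 828 lower (8.04%). Without week 4 after anti-RANKL, where 5 of the 8 members are pair members, 408 genes were called higher for all members, so many genes missed the call through that library alone.

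Genes of the granule matrix and of prohormone processing were higher in part. Of the 15 genes of this list, 12 passed the filter on low levels outside the choosing genes. Of these, 4 were called higher (Chga, Resp18, Scg5 and Pam) and 0 lower, with a median ratio of 1.63 and all 12 above 0. A gene can pass the filter through members alone, and the median was 1.52 without it. In granule members 6 were called higher (against 5.22% of all genes), with Ptprn and Ptprn2, membrane proteins of the dense-core granule, added, and the median was 2.27.

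Chga codes for chromogranin A, the acidic protein around which granules condense. Members held 14.3 UMIs of Chga per 10000 in the lineage tracing library, 12.2 and 5.67 in controls of weeks 2 and 10, and 26.4, 8.36, 1.28 and 3.29 at weeks 2, 4, 6 and 10 after anti-RANKL. Other cells held 1.72, 0.556, 0.269, 3.46, 0.745, 3.38 and 0.807 in the same order. Members were above the other cells in every library but week 6, whose 3 members are all pair members. The mean log2 ratio was 3.22 ± 0.83, and 4.57 against other cells that passed the gates. Chga had a UMI in 56 members (65.9%, 54.8 to 75.8%) and in 16.5% of other cells, and the member with the most gave 30.5% of the sum over members.

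Resp18 held 3.14 UMIs per 10000 in members of the lineage tracing library, 16.5 and 7.70 in isotype controls, and 15.6, 0.147, 0 and 9.42 at weeks 2, 4, 6 and 10 after anti-RANKL, against 0.793, 1.66, 0.816, 0.570, 0.0528, 0.0459 and 0.864 in other cells. It was high in both controls and at weeks 2 and 10 after anti-RANKL, and near the other cells at week 4. Its ratio was 2.79 ± 1.34. Scg5, a chaperone of a prohormone convertase, held 5.46 in the lineage tracing library, 5.12 and 3.07 in isotype controls, and 4.72, 0.505, 0.291 and 2.61 after anti-RANKL, against 0.265 to 0.549 in other cells. Week 4 was again the lowest of the 6 libraries used, and the ratio was 2.64 ± 1.01. Pam, the enzyme that amidates the ends of peptide hormones, was detected in 73 members and had a ratio of 1.36 ± 0.77.

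The convertases that cleave prohormones were sparse. Pcsk1 had a UMI in 9 members, all of them granule members, with a ratio of 1.38 ± 1.23, and Pcsk2 in 3. Cpe, the carboxypeptidase that trims the cleaved peptide, had a UMI in 9 members, and 1 cell gave 50.1% of its sum. Scg2 (secretogranin II) had a UMI in 10 members, 8 of them at week 2 after anti-RANKL, and Pcsk1n in 6 with 65.5% of the sum in 1 cell. These genes had mean ratios above 0 without being above 0 in every library, and Qpct had no UMI in any member, which allows a UMI in up to 3.53% of members.

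Free RNA in the droplets gives some cells a UMI of a gene they do not make. Cells with Ptprc above 0 served as a rough measure. They numbered 233, with a median of 10161 UMIs, and are not all lymphoid, since 143 lacked Trpm5 and the rest held this tuft cell gene, and 73.4% of the 143 held Epcam. Among the 143 (median 10519 UMIs), 18.2% had a UMI of Chga, 18.2% of Resp18, 16.1% of Scg5, 4.90% of Car8 and 6.29% of Syt7. The choosing genes Insm1 and Stmn2, which alone choose the pair members, had one in 29.4% and 15.4%. The share of Chga in other cells (16.5%) was near that of these 143, while its share in members was above it. Chga had a UMI in 22.3% of all 233 cells with Ptprc and in 28.9% of those with Trpm5. Since most of the 143 held Epcam, their shares do not measure free RNA alone. Thinned to 2000 UMIs per cell, Chga had a UMI in 44.0% of members, 5.54% of other cells and 5.04% of the cells with Ptprc and without Trpm5, and Car8 in 46.4%, 0.816% and 1.44%.

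Genes of vesicle docking and exocytosis were partly higher. Of the 27 genes of this list that were tested, 3 were called higher, Syt7 and Syt1 among them (against 2.02% of all genes), 1 lower (Sv2b, against 4.19%), and 26 had a mean ratio above 0, with a median of 0.79 (0.55 without the filter on low levels, which a gene can pass through members alone). In granule members 10 were called higher (against 5.22% of all genes), 1 lower, and the median was 1.25. Syt7, a calcium sensor of granule fusion, held 1.88 UMIs per 10000 in members of the lineage tracing library, 1.72 and 0.532 in isotype controls and 1.31, 0.381, 0 and 1.25 after anti-RANKL, against 0.0125 to 0.189 in other cells. Its ratio was 2.68 ± 0.91, and 34 of the 35 members with a UMI were granule members. Syt1, another calcium sensor, had a ratio of 1.32 ± 0.61 with a UMI in 69 members. Sv2b, a vesicle glycoprotein, had a UMI in 3 members and a ratio of -1.11 ± 0.68.

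Stxbp5l, a syntaxin-binding protein of the tomosyn family, and Cplx2, a complexin that clamps the SNARE complex, each had a UMI in 41 members, of which 40 were granule members. Stxbp5l held 4.27 UMIs per 10000 in the lineage tracing library, 3.40 and 1.81 in isotype controls and 1.32, 0, 0 and 2.78 after anti-RANKL, against at most 0.0963 in other cells. Its ratio was 3.49 ± 1.88 for all members and 4.57 for granule members, and it missed the call through the absence of UMIs in the 8 members of week 4. Cplx2 had ratios of 2.75 ± 2.00 and 3.90 in the same way. Vamp2, the vesicle SNARE, was broadly present in other cells too (38.5% with a UMI) and had a ratio of 0.89 ± 0.79. Rph3al, Rab3a and Rab27b, small GTPases of granule transport and an effector of theirs, were called higher in granule members alone, with ratios of 2.28, 1.43 and 1.52.

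Transcription factors of endocrine differentiation were higher in part. Of the 19 factors tested outside Insm1, 4 were called higher (Runx1t1, Prox1, Foxa1 and Foxa2), 0 lower, and the median was 0.69, against 1.20 in granule members, where Foxa3 was also called higher and Hes6 lower (-1.04). Without the filter on low levels the median for all members was 0.08. Foxa1 and Foxa2 open chromatin in gut, lung and pancreas epithelium. Foxa1 held 0.941 UMIs per 10000 in members of the lineage tracing library, 1.18 and 0.769 in isotype controls and 1.08, 1.14, 0 and 0.840 after anti-RANKL, against 0.0343 to 0.196 in other cells. The members of the 6 libraries lay close together, all above the other cells, and the ratio was 2.27 ± 0.49. Foxa2 had a ratio of 1.92 ± 0.39 with a UMI in 14 members, all granule members.

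Runx1t1, a co-repressor, had a ratio of 2.54 ± 0.60 and a UMI in 20 granule members and 0 pair members. Prox1, a homeobox factor of endocrine precursors and of other lineages, had a ratio of 2.28 ± 1.16. St18, a zinc finger factor related to Myt1, had 2.50 ± 1.60 and a UMI in 23 granule members, and missed the call because its 12 members of week 10 after anti-RANKL held none. At least 1 of Foxa1, Foxa2, Foxa3, Prox1, Runx1t1 and St18 had a UMI in 48 of 59 granule members (81.4%) and at least 3 in 23, against at least 1 in 6 of 26 pair members (23.1%) and 14.6% of other cells. Tuft cells, in which Prox1 and St18 are also present, stood at 45.7%, and cells with Ptprc, part of which hold Trpm5, at 41.6%. Foxa1 and Stxbp5l were found together in 24 of the 29 members with Foxa1, and all 23 members with St18 also held Chga.

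Several factors that start endocrine differentiation elsewhere were rarely detected. Neurod1, Nkx6-1 and Pax4 had no UMI in any of the 85 members, which allows a UMI in up to 3.53% of members and does not limit the share that expresses them. Neurog3 had one in 4 members, Nkx2-2 in 5, Pax6 in 6 and Rfx6 in 9. All of these detections were in granule members. Isl1, Sox4 and Hes6 had ratios of 0.21, 0.21 and -0.28.

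Genes of excitability were higher in part. Of 16 channel genes tested, Cacna2d1, Scn3a and Cacna1a were called higher and 0 lower, with a median of 0.99 (0.31 without the filter). Cacna2d1, an auxiliary subunit of voltage-gated calcium channels, held 4.05 UMIs per 10000 in members of the lineage tracing library, 4.81 and 2.96 in isotype controls and 2.94, 0.762, 0.236 and 3.57 after anti-RANKL, against 0.0835 to 0.218 in other cells. Members were above the other cells in all 7 libraries, with a ratio of 3.61 ± 0.95 over the 6 used. Scn3a, a sodium channel subunit, had a ratio of 2.24 ± 0.99 and a UMI in 25 granule members and 0 pair members, and Cacna1a, the pore of a presynaptic calcium channel, 1.72 ± 0.97. Kcnk3, a leak potassium channel, had 2.34 ± 1.56 with 21 granule members and 0 pair members, and Abcc8, the sulfonylurea receptor of insulin-secreting cells, 1.35 ± 1.51. Neither was above 0 in every library.

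Genes of the neuronal cytoskeleton and RNA binding were mixed. Of 19 tested, 2 were called higher (Gnao1 and Map1b), 2 lower (Gnb3 and Dpysl3), and the median was 0.57 (0.03 without the filter), while 2.02% of all genes were called higher and 4.19% lower. In granule members 6 were called higher (against 5.22% of all genes) and 3 lower (against 7.52%). Gnao1, a G protein subunit of neurons and endocrine cells, had the smallest spread of these, 2.50 ± 0.27, with a UMI in 22 granule members and 0 pair members. Map1b, a microtubule protein, had 1.55 ± 0.46. The neuronal RNA-binding proteins Elavl4 and Celf3 had ratios of 2.49 ± 1.42 and 2.13 ± 1.33 and were called higher in granule members alone, where 23 and 25 cells held them. Many neuronal genes were missing or rare in members, with Stmn4, Srrm4 and Tagln3 at 0, Tubb3 in 2 and Uchl1 in 2.

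The genes with the highest ratios lay mostly outside these lists. Car8, a relative of the carbonic anhydrases that binds the receptor of inositol trisphosphate, led with 5.02 ± 0.86. It held 9.70 UMIs per 10000 in members of the lineage tracing library, 12.6 and 6.47 in isotype controls and 8.95, 1.43, 0 and 4.82 after anti-RANKL, against 0 to 0.227 in other cells. Every library with granule members was above every value of the other cells, and 42 of the 44 members with a UMI were granule members. Clca3b, of the family of chloride channel regulators, followed with 3.95 ± 1.35, and its level was uneven, at 26.7 in the week 2 control and 0.573 to 4.22 in the other 5 libraries used.

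Cd177, a surface glycoprotein known from neutrophils, had a ratio of 3.89 ± 0.70 and a UMI in 26 members, and Fam183b 3.88 ± 0.72 and a UMI in 37, all of them granule members. Ceacam10, an adhesion protein, had 3.75 ± 0.86. Camk2n1, an inhibitor of calcium/calmodulin-dependent kinase II, had 3.39 ± 1.05, and 48 of the 49 members with a UMI were granule members. Its share was 9.79% in cells with Ptprc and without Trpm5 and 85.6% in those with both, so cells with this tuft cell gene carry it too.

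Of the rest of the 25 highest, Sfrp5 is a secreted inhibitor of Wnt (2.89 ± 0.49), Pigr carries immunoglobulin A across epithelia (2.88 ± 0.61), Tspan1 is a tetraspanin (2.77 ± 0.52) and Vil1 builds microvilli (2.53 ± 0.60). Rundc3a (2.85 ± 0.56), Aplp1, a relative of the amyloid precursor (2.79 ± 0.58), and Tox3, an HMG-box protein (2.66 ± 0.82), are known from neurons. Col8a1, a collagen chain, had 2.85 ± 0.97, the kinesin Kif12 2.55 ± 0.82, the kinase Mapk15 2.54 ± 0.72 and the reductase Akr1c19 2.74 ± 0.60. The uncharacterised 2210407C18Rik had 3.04 ± 1.02. AW112010, annotated as a long non-coding RNA, had 2.65 ± 0.77 and, unlike the others, was common in other cells (53.6% with a UMI) and high in pair members too (16.7 UMIs per 10000, against 24.0 in granule members). Its ratio was 0.74 with at least 3 choosing genes and 1.77 thinned to 2000 UMIs. All 25 genes were also called higher against the other cells that passed the gates and in granule members alone.

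**Figure D3:**
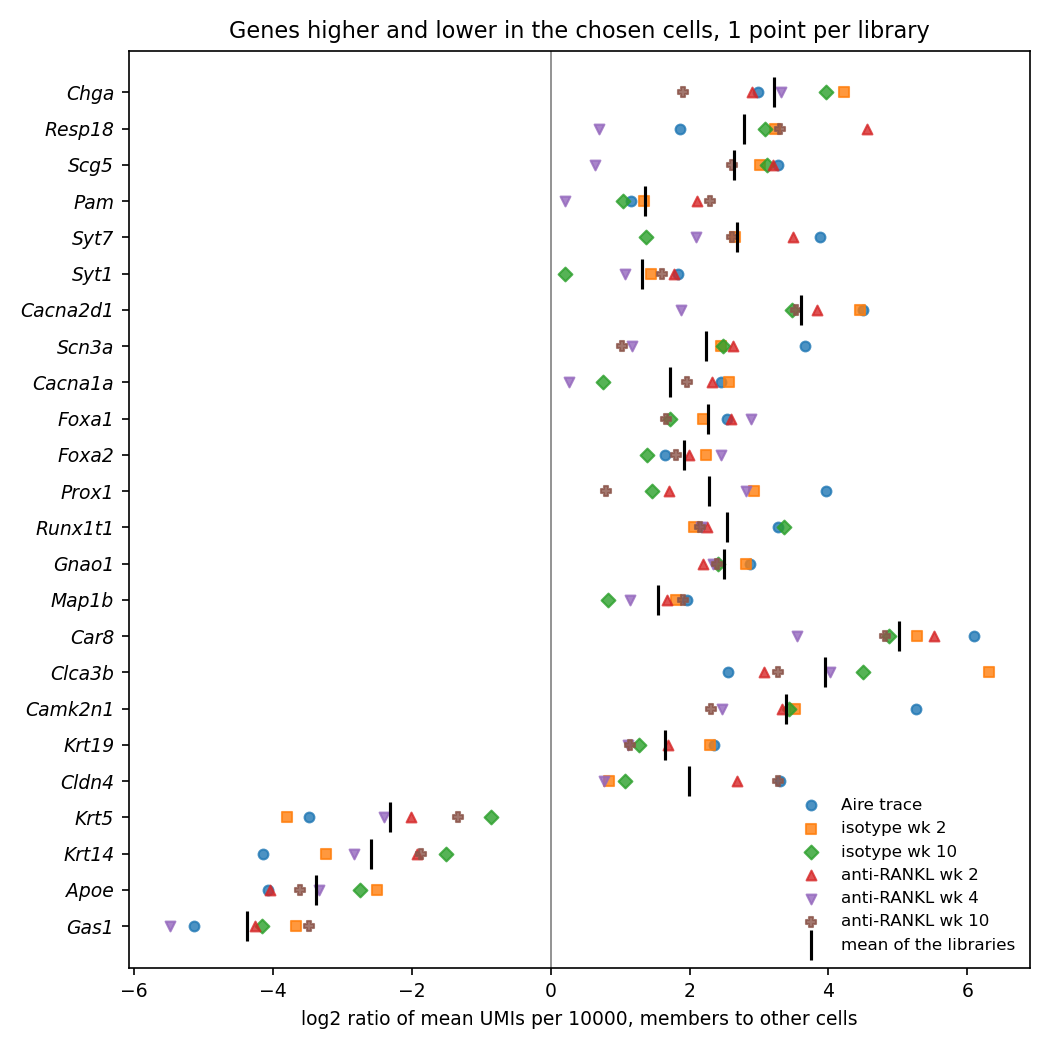
Log2 ratio of mean UMIs per 10000 between members and other cells with Ptprc at 0 for 24 genes, with 1 point for each of the 6 libraries with at least 5 members and a bar at their mean. Chga averages 3.22 and Car8 5.02, while Krt5 averages -2.31 and Gas1 -4.37.

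These genes lie mostly apart on the genome. In the GRCm38 annotation Chga lies at chr12:102554969-102565028, Resp18 at chr1:75272199-75278415, Scg5 at chr2:113776362-113829121, Car8 at chr4:8143362-8239041, Cacna2d1 at chr5:15934691-16374511, Foxa1 at chr12:57540628-57546916 and Syt7 at chr19:10389090-10453180. Ptprn, called higher in granule members, lies next to Resp18, at chr1:75247027-75264502. Neighbours among the 25 highest were Cd177 at chr7:24743983-24760311 with Ceacam10 at chr7:24777206-24784657, and 2210407C18Rik at chr11:58608204-58616075 with Fam183b at chr11:58792797-58801960.

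Peptide hormone genes did not follow the granule genes as a group. Of 73 such genes in the files, 46 had a UMI in any member and 37 were tested, of which 0 were called higher and 6 lower (Pthlh, Adm, Cck, Penk, Tac1 and Oxt), with a median of -0.57. In granule members 12 of 36 were called lower (against 7.52% of all genes), 0 higher, and the median was -1.02. For all members against other cells that passed the gates, 3 were called lower (against 5.62% of all genes) and the median was 0.07. At least 1 peptide gene had a UMI in 80 of 85 members (94.1%) and in 90.7% of other cells, and thinned to 2000 UMIs in 73.8% and 73.6%, with means of 1.55 and 1.53 genes per cell. Other cells that passed the gates stood lower, at 51.4% and 0.928 genes, and Aire-positive cells higher, at 87.5% and 2.31 genes. Members thus held as many kinds of peptide transcript as the other cells did. The summed level was 34.1 UMIs per 10000 in members (42.1 in granule members and 15.8 in pair members) and 17.6 in other cells. Aire-positive cells, at 30.5, were near the members, and other cells that passed the gates stood at 11.9. The sum in members was carried by a few cells with much of a single gene.

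Iapp, the islet amyloid peptide secreted with insulin, had the highest level of these genes in a single member. It had a UMI in 20 members (23.5%, 15.0 to 34.0%), 18 of them granule members, against 14.7% of the cells with Ptprc and without Trpm5, and thinned to 2000 UMIs in 17.9% against 7.19%. It reached 10 UMIs per 10000 in 11 members and 50 in 6. The cells with the most held 335 (222 UMIs, week 2 control), 264 (178 UMIs, week 2 after anti-RANKL) and 259 (88 UMIs, week 10 after anti-RANKL). By library, members averaged 9.88 in the lineage tracing library, 27.2 and 0 in isotype controls and 13.5, 29.7, 0 and 22.8 after anti-RANKL, against 0.0391 to 1.47 in other cells. The ratio was 3.16 ± 3.35, and Iapp was not called, since none of the 12 members of the week 10 control held it.

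Pyy, a gut peptide of satiety, had a UMI in 10 members, and 2 cells with 109 and 108 UMIs per 10000 held most of it. Nts (neurotensin) had one in 8 members, with 69.8 and 66.1 in 2 cells of week 10 after anti-RANKL. Ghrl (ghrelin) had one in 3 members, of which 1 cell of the week 2 control held 145 and 96.4% of the sum. Npy had one in 3 members, with 51.0 in the highest cell. Transcripts of these peptides were thus abundant in single members of several libraries, and most members had none of a given peptide.

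Calcb, a peptide of the calcitonin family that Aire-positive cells also make (6.59 UMIs per 10000), was found in 32 members at 1.57 with a highest cell of 17.8. Calca, of the same family, was found in 12, Grp, the gastrin-releasing peptide, in 15, Insl6 in 28 and Adm (adrenomedullin) in 31. Adm was called lower, at 0.816 against 2.63, with a ratio of -1.80 ± 1.05. By the most abundant peptide of each member, Calcb led in 16, Iapp in 13, Adm in 9 and Nts in 5, and 5 members had no peptide transcript. Gast, Sst, Ins2, Ins1 and Vip had no UMI in any member. Sct, the secretin gene, was found in 23 members and had a ratio of 0.09 ± 1.37.

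**Figure D4:**
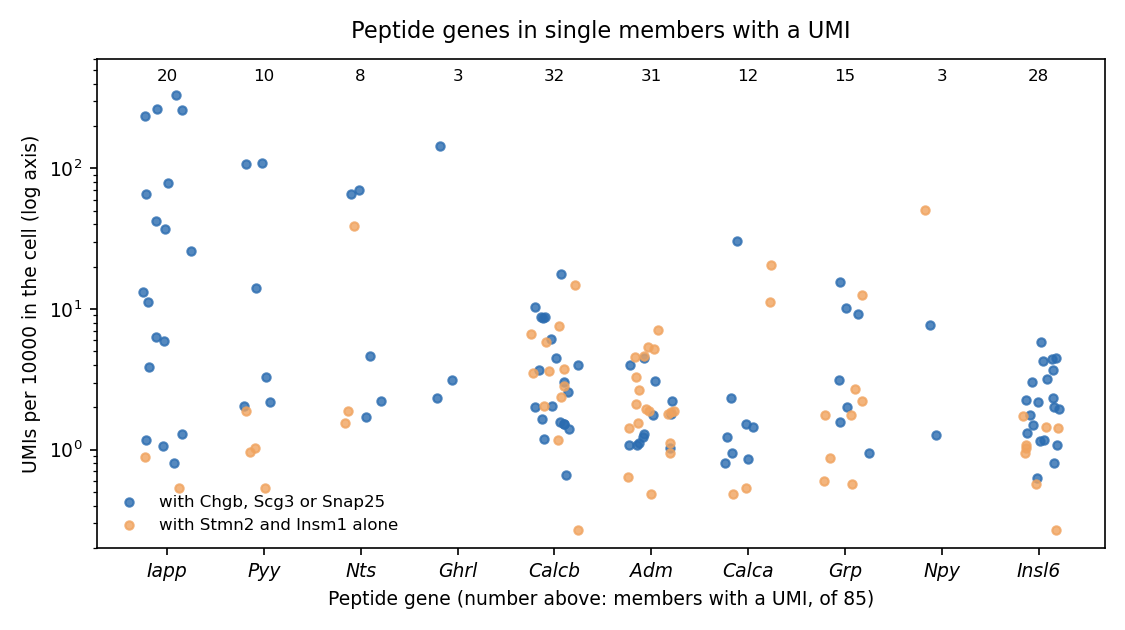
Level of 10 peptide genes (UMIs per 10000, log axis) in single members with at least 1 UMI of the gene, with granule members in blue, pair members in orange and the number of members with a UMI above each gene. Iapp reaches 335 and Ghrl 145 in single cells, while Adm stays at or below 7.08.

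Of the enzymes of monoamine synthesis, 6 genes were tested, with a median of 0.64 and 0 called. Ddc, which decarboxylates the precursors of serotonin and dopamine, had a ratio of 2.54 ± 1.54 and a UMI in 24 members, 23 of them granule members, against 2.77% of other cells. Its members of the week 10 control held none. Gch1, which makes the cofactor of the hydroxylases, had 1.27 ± 1.47, and Tph1, which starts serotonin synthesis outside the brain, 0.96 ± 0.92 in 8 granule members, and both were called higher in granule members alone. Th and Gad2 had no UMI in members, and Hdc, which makes histamine, had -1.01 ± 1.63.

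Genes of thymic epithelial identity went both ways in members. Of 30 tested genes of thymic epithelial identity, 4 were called higher (Krt19, Cldn3, Cldn4 and Cldn7) and 5 lower (Krt5, Krt14, Krt17, Trp63 and Pax1), with a median of -0.11. Krt8, a keratin of simple epithelia, was found in all 85 members at 23.0 UMIs per 10000, against 14.7, and Epcam in 82. Krt5, the basal keratin of the medulla, held 1.55 in members of the lineage tracing library, 0.280 and 2.41 in isotype controls and 4.03, 2.46, 4.72 and 2.06 after anti-RANKL, against 18.4, 5.17, 4.46, 16.5, 13.4, 9.48 and 5.33 in other cells. Members were below the other cells in every library, with a ratio of -2.31 ± 1.16, and -1.90 against other cells that passed the gates.

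Krt14, the partner of Krt5, had -2.58 ± 1.00, and Trp63, the factor of basal epithelium, -2.09 ± 0.72. The tight junction genes Cldn4, Cldn3 and Cldn7 had ratios of 1.99 ± 1.22, 1.97 ± 0.60 and 1.76 ± 1.04, and Krt19 1.64 ± 0.57, although against other cells that passed the gates Krt19 had 0.57 and Cldn4 1.09, and neither was called. Foxn1, the factor of thymic epithelial fate, had -0.70 ± 0.64 with a UMI in 16 members, and Pax9 0.48 ± 0.49. Krt19 averaged 5.54 in granule members and 0.566 in pair members.

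Of the genes of MHC class II and costimulation, 1 of 16 was called lower (H2-DMa, -1.21 ± 0.67) and 0 higher, near the 4.19% of all genes called lower, with a median of -0.65. In granule members 6 of 15 were called lower, against 7.52% of all genes, and the median was -1.30. Cd74, the invariant chain, was found in all 85 members at a mean of 102 UMIs per 10000, against 156 in other cells. It averaged 75.2 in granule members, 157 in pair members and 217 in Aire-positive cells. Cd274, which codes for the ligand PD-L1, went the other way, at 0.88 ± 0.24 and above 0 in every library. Of 11 genes of MHC class I, 0 were called and the median was -0.05.

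Immediate early and heat shock genes, which also respond to tissue dissociation, were higher in part. Of 21 tested, Btg2, Jund and Egr1 were called higher, Ier3 and Hspa1a lower, and the median was 0.28. Jund had 1.12 ± 0.32. Fosb (1.26 ± 0.86) and Atf3 (1.43 ± 1.57) were called in granule members alone, where the list had 6 genes higher (against 5.22% of all genes), 2 lower (against 7.52%) and a median of 0.62. Summed over the list, members held 165 UMIs per 10000 and other cells 123, granule members 198 and pair members 90.6. The part of dissociation in these values was not tested.

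Of 21 tested cell cycle genes, 3 were called lower (Ccnb2, Cdk1 and Ccnb1, against 4.19% of all genes), 0 higher, and the median was -0.65. Top2a had a UMI in 1 granule member and 6 pair members. Against other cells that passed the gates 0 were called and the median was -0.11. Summed over the list, members held 14.5 UMIs per 10000 against 9.26, of which Cdkn1c, an inhibitor of the cycle, made up 6.13, and pair members held 18.2 of Cdkn1c. The sum was higher in members in the week 10 control (23.8 against 12.5) and at weeks 2 and 6 after anti-RANKL (24.4 against 7.93 and 27.0 against 6.64). It was lower in the lineage tracing library (4.21 against 8.09), the week 2 control (6.22 against 12.2) and weeks 4 and 10 after anti-RANKL (3.89 against 6.14 and 7.45 against 11.1).

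Markers of other epithelial states were called lower in part, and the gates on Trpm5, Aire and Ccl21a bear on this choice. Tuft cell markers had 6 of 15 lower, 0 higher and a median of -1.17, with Il25, Gnat3, Tas1r3 and Chat at 0 and a summed level of 2.77 UMIs per 10000 against 6.12. Markers of the Ccl21a-high state had 6 of 11 lower and a median of -1.39, with Fst, a binder of activins, at -2.70 ± 0.68. Those of the Aire stage had 3 of 13 lower (Ccl5, Ccl22 and Ccl17) and a median of -0.44. Markers of cortical epithelium had 3 of 12 lower (Cxcl12, Ackr4 and Il7) and a median of -0.86. Against other cells that passed the gates, 2 tuft cell markers were called lower (median -0.32), 6 of the Ccl21a-high state (-1.52), 1 of the Aire stage (-0.18) and 2 of cortical epithelium (-1.49). Of all genes, 5.62% were called lower in that comparison. The Ccl21a gate allows low values, and 79 members held a UMI of Ccl21a and 37 of Pth.

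Keratinocyte-like markers had 5 of 15 lower, 1 higher (Pigr) and a median of -1.05, led by Krtdap at -3.01 ± 0.55. Microfold markers had 1 of 10 lower (Ccl6) and a median of -0.67. Ciliated markers had 0 of 6 called, a median of 0.69 and a summed level of 3.38 against 1.16, mostly from Tppp3 at 2.19, with Tekt1 and Trp73 at 0. Muscle markers had 0 of 5 called and a median of -0.28, yet a summed level of 3.85 against 1.12, with 11.7 in pair members, 0.387 in granule members and 11.6 in members of week 2 after anti-RANKL. Actc1 was the most abundant at 1.49, and Myod1, Tnnt3 and Myh3 were at 0. Ionocyte markers had 0 of 1 called, and secretory and goblet markers 1 of 9 lower (Bpifa1) with a median of -0.12.

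Some lists were summed to show RNA of other tissues in members. Enterocyte and liver markers had 1 of 13 higher (Vil1), 1 lower (Fabp1) and a median of -0.29, and summed to 26.6 UMIs per 10000 in members against 9.93, of which Reg3g, an antibacterial lectin, made up 16.5. By library, this sum was lower in members in the week 2 control alone (8.89 against 25.6). It lay furthest above the other cells at week 4 after anti-RANKL (44.7 against 1.07). Alb and Apob were at 0. Acinar markers of the pancreas had 0 of 6 called and a median of 0.52, and summed to 12.0 against 2.13. Clps, the colipase, was the most abundant at 5.38, and 1 cell with 413 gave 90.5% of it, while Cpa1, Cpb1 and Pnlip were at 0. By library, the acinar sum was 1.73 in members of the lineage tracing library, 11.2 and 1.76 in isotype controls and 24.2, 0, 0 and 15.9 after anti-RANKL. The part of RNA from other cells in these sums was not tested.

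Markers of cells of other origin were read in the same way. Of the parathyroid markers, 1 of 3 was called, which is Chga itself, with a median of -0.61, and Gcm2 and Tbx1 were at 0. Thyroid and C cell markers had 0 of 3 called and a median of -0.35, with Tg, Tshr, Nkx2-1, Pax8 and Foxe1 at 0. Neuron and glia markers had 0 of 3 called and a median of 0.09, with Sox10, Gfap, Hand2 and Th at 0, genes of glia and of sympathetic neurons, and a summed level of 2.38 against 1.57, highest at week 10 after anti-RANKL (6.72 against 2.52).

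T cell markers had 0 of 3 called, a median of 0.30 and a summed level of 0.713 against 0.494. It was 5.69 in the lineage tracing library, where 1 member held Cd3g at 29.1, and at most 0.344 in the other libraries, while Cd3d, Cd4, Cd8a, Cd8b1 and Rag1 were at 0 in all 85 members. Myeloid and B cell markers had 0 of 5 called and a median of -0.69, with Itgax, C1qc and Siglech at 0, and a summed level of 8.63 against 11.6, of which Cst3 made up 4.81. It was above the other cells in the week 2 control alone (16.5 against 12.1). Markers of stroma and endothelium had 3 of 6 lower (Dcn, Acta2 and Lum) and 1 higher, Vwf, a protein stored in granules of endothelium, at 2.45 ± 0.81, while the endothelial genes Cdh5 and Kdr were at 0. Red cell markers had 3 of 4 lower. The part of RNA from such cells in members was not tested. The 10 housekeeping genes had 0 called and a median of -0.23.

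The genes with the lowest ratios were led by genes of matrix and mesenchyme. Gas1, a coreceptor of hedgehog, had -4.37 ± 0.80. Members of the lineage tracing library, of both controls and of week 4 held no UMI of it, and those of weeks 2, 6 and 10 after anti-RANKL held 0.128, 0.236 and 0.0751 UMIs per 10000, against 1.17 to 4.38 in other cells. Apoe, the lipid carrier, held 1.91 in the lineage tracing library, 1.76 and 1.71 in isotype controls and 1.36, 2.83, 4.59 and 1.10 after anti-RANKL, against 33.5, 10.4, 12.0, 23.9, 29.6, 27.6 and 14.5 in other cells. No member average came near any average of the other cells, and the ratio was -3.38 ± 0.66. Both genes were also low in pair members, at 0.119 and 1.79.

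Mgp and Dcn, proteins of the matrix, had ratios of -3.66 ± 0.83 and -3.13 ± 0.90, and the actomyosin genes Tagln and Myl9 -3.15 ± 1.42 and -2.99 ± 0.69. The chemokines Ccl11, Cxcl12 and Ccl5 had -2.97 ± 0.83, -2.97 ± 1.43 and -2.90 ± 1.05. The interferon-induced genes Isg15 and Ifit3 had -2.91 ± 0.62 and -2.79 ± 1.35, and Ly6a -2.71 ± 1.33. Krtdap, Sprr1a (-2.90 ± 0.82) and Bpifa1 (-2.80 ± 1.45), genes of keratinocytes and of airway secretion, completed the 15 lowest. All 15 were called lower against the other cells that passed the gates too, where Tagln (-2.56) and Ccl11 (-1.24) lay closer to 0 and the others further from it, with Gas1 at -5.40 and Dcn at -4.60.

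Among the members themselves, the genes most like Chga were sought by the Pearson correlation of their natural log values over all 85, among 5071 genes with a UMI in at least 20% of them. St18 was first (r = 0.63, and 0.58 over the 59 granule members), followed by Fosb (0.62 and 0.59), Fam183b (0.56 and 0.43) and Camk2n1 (0.54 and 0.34). H2-Q2, Ddx5, Gch1 and Ddc had 0.52, the choosing gene Snap25 0.51 and Myo15b 0.50. The cells share libraries and differ in depth, and a correlation over sparse counts is a description. Within granule members Snap25 dropped to 0.30, while Ddx5, an RNA helicase, had 0.54.

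The ZsGreen reporter, listed as GFP and read in the lineage tracing library alone, had a UMI in 5 of 8 members (62.5%, 24.5 to 91.5%). All 8 members of this library are granule members, so the reporter was not read in pair members. The share was 63.8% of the 69 cells with Ptprc above 0, 48.0% of other cells, 76.4% of Aire-positive, 70.0% of tuft and 35.7% of Ccl21a-high cells. Median depths were 6642 UMIs in the members and 12350.0 in the cells with Ptprc. Thinned to 2000 UMIs, the shares were 37.5% (8.52 to 75.5%) in members, 26.1% (16.3 to 38.1%) in cells with Ptprc, 44.9% (39.0 to 51.0%) in Aire-positive cells and 9.72% (7.73 to 12.0%) in Ccl21a-high cells. The interval of the 8 members includes the shares of these classes, so a difference from them was not detectable with so few cells. All 7 cells with a high Krt10 level held the reporter, also when thinned (59.0 to 100.0%).

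Promoters of the genes called higher were searched in the 250 bases before the gene start in RefSeq (GRCm38.p6), where 153 of the 204 genes matched. The motifs were the forkhead motifs TGTTTAC and TGTTTGC, the cyclic AMP response elements TGACGTCA and TGACGTAA, and the E-box CAGCTG, each on both strands. TGTTTAC was found in 3.09% of all 27025 promoters, 2.21% of those of tested genes and 8 of the 153 (5.23%). TGTTTGC was found in 4.30%, 3.25% and 6 (3.92%), and TGACGTCA in 1.62%, 2.85% and 5 (3.27%). TGACGTAA was found in 0.477%, 0.754% and 2 (1.31%), and CAGCTG in 12.8%, 11.5% and 28 (18.3%). The shares among the 153 were above those of the tested genes, resting on 2 to 28 genes each, and chance was not tested. Of genes called higher in granule members, 406 matched. Their shares were 3.45%, 4.19%, 2.22%, 0.985% and 15.0% in the same order of motifs, so TGACGTCA lay below its share of tested genes. A match describes letters, with binding not measured.

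The promoters of 3 genes that mark the members are shown with these motifs in capitals, Chga and Resp18 as granule genes and Foxa1 as a factor, to show where the letters lie. They were taken from 7 promoters read, and those of Scg5, Cacna2d1, Foxa2 and Prox1 held none of the motifs. Chga lies on the plus strand (chr12:102554691-102554940, CAGCTG starting at -179 and -116 and TGACGTAA at -44 from the gene start of RefSeq). Resp18 (chr1:75278416-75278665, CAGCTG at -73) and Foxa1 (chr12:57546112-57546361, GTAAACA, the other strand of TGTTTAC, at -141) lie on the minus strand. The stretch of Foxa1 lies before the RefSeq start but inside the gene as placed by the GRCm38 annotation above.
Chga: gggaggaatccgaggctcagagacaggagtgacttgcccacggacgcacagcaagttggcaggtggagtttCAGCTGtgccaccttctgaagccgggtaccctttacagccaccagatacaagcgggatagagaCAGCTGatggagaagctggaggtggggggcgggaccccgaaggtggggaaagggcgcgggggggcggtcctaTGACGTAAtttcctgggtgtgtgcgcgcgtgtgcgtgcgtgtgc
Resp18: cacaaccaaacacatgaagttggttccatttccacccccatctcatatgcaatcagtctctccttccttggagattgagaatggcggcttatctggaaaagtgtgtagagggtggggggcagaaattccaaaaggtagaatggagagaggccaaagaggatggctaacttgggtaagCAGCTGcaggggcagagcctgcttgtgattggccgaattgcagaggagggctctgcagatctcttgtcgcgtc
Foxa1: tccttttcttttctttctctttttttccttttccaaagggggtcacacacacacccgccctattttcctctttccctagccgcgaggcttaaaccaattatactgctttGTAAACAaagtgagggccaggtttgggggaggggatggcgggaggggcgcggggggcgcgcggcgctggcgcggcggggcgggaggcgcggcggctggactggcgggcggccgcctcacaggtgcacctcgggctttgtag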

How the data were processed

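The authors aligned reads to mm10 with Cell Ranger 2.2.0, filtered cells in Seurat 2.3.4 and deposited natural log values, computed after dividing by the depth of the cell, multiplying by 10000 and adding 1. The methods name another scale factor, but every cell sums to 10000. Whole UMIs were recovered in every cell within a tolerance of 0.001. The tables that combine libraries (10760 cell columns) were not used here. Levels were averaged over cells, then over libraries with at least 5 members. Levels of the granule and pair members and of the gates, and levels summed over a list, are means over all their cells, without averaging by library. Ratios used a pseudocount of 0.1 and a filter at a mean level of 0.1. Members and gene lists were chosen with earlier results of these data known. Genes were named from 36 lists, and beyond them as the 25 highest and 15 lowest called, the 10 most abundant peptide genes in members and the 10 most like Chga. Thinning drew 2000 UMIs per cell without replacement and left out 172 cells with Ptprc at 0. Intervals are exact binomial 95% intervals. Alternatives changed the rule, gates, reference, depth, pseudocount, filter, weighting, scaling and libraries. The ratio step was tested on simulated data. Scripts ran in Python 3.11.15 with pandas 2.3.3, numpy 2.4.6, matplotlib 3.10.9 and scipy 1.17.1. Each library is 1 pool of thymi, and no p-values were computed.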

Additional observations from a re-analysis of the deposited data

Results flagged for a closer look

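Sct, which codes for the gut hormone secretin, went opposite ways in the conditions. The mean log2 ratio of members to other cells was -1.34 over the 2 controls, both below 0, and 1.22 over weeks 2, 4 and 10 after anti-RANKL, all above 0. Members held 0.333 and 0.239 UMIs per 10000 in the week 2 and week 10 controls and 1.06, 0.528 and 0.717 at weeks 2, 4 and 10 after anti-RANKL, against 1.03 and 0.734, and 0.323, 0.0743 and 0.542, in other cells. Only 23 members held a UMI of Sct, and the difference was not tested.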

How the results depend on the processing

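The share of members, 1.03%, was 0.389% with at least 3 choosing genes and 4.54% with at least 1, 0.373% and 0.689% with cells thinned to 2000 and 4000 UMIs, and 2.00% and 5.01% without the gate on Ccl21a and on Aire. The genes called higher and lower (204 and 422) numbered 640 and 1348 with at least 3 choosing genes, 788 and 1361 thinned to 2000 UMIs, 449 and 874 thinned to 4000, 82 and 80 with a pseudocount of 0.5, and 32 and 187 without the gate on Ccl21a. Those higher numbered 770 with libraries pooled, 430 and 51 with at least 10 members and at least 1 per library, and 83 without the gate on Aire. Those lower numbered 648 with a pseudocount of 0.02 and 152 at a mean level of at least 0.5. Fewer libraries enter a call under a stricter rule and more under a looser one; the cause was otherwise not tested. In alternatives chosen after seeing the data, with at least 1 and at least 2 of Chgb, Scg3 and Snap25, the share of members was 0.718% and 0.414%, with 536 and 678 genes called higher and 772 and 1278 lower. Leaving out each library in turn gave 204 to 408 higher, the most without week 4 after anti-RANKL, 422 to 543 lower, a share of members of 0.853 to 1.14% and a granule list median of 1.30 to 1.99. No comparison of conditions paired by animal was possible, because libraries of different conditions share no mice.

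The granule matrix and prohormone processing median stayed above 0 and the 25 highest and 15 lowest genes kept their direction under every alternative run. The median of MHC class II and costimulation turned from -0.65 to 0.37, and that of cell cycle from -0.65 to 0.46, without the gate on Aire. The median of peptide hormones (-0.57) ran from -1.23 with a pseudocount of 0.02 to 0.07 against the reference that passed the gates, and that of TEC identity from -0.24 thinned to 4000 UMIs to 0.11 at a mean level of at least 0.5. Without the filter on low levels the median of neuroendocrine transcription factors was 0.08 instead of 0.69. Depth limits what a member without a UMI can show, since the median member held 8161 UMIs, and genes at a few UMIs in few cells rest on those cells. No library was replicated under anti-RANKL.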
